A study of Caenorhabditis elegans with 4 samples.

Results

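Transcripts of 8 genes for enzymes and readers of histone H3 lysine 9 (H3K9) methylation, and for partners of these proteins, were examined. The tissue was dissected adult hermaphrodite gonads of Caenorhabditis elegans, with and without a functional met-2 gene. The members were picked out of the tables by gene name and are met-2, set-25, set-32, hpl-1, hpl-2, lin-61, lin-13 and lin-65, 8 of the 20389 genes in the deposited tables. The study sequenced gonad mRNA to ask what the short-term loss of met-2 does to transcripts. Among the 8 genes met-2 itself was the member with the largest difference. Its transcripts averaged 39.3 CPM in met-2;him-8 and 169.7 CPM in him-8, where they were 4.32-fold higher, and the size of this difference varied with the libraries included. Transcripts of set-25, hpl-2 and lin-65 had nearly equal mean levels in both genotypes, set-32 was somewhat lower and hpl-1 higher on average in met-2;him-8, and lin-13 differed more between replicates than between genotypes. At an adjusted p of 0.05, edgeR's quasi-likelihood test fitted on genotype alone called 0 of the 8 genes and 0% of all tested genes. It thus did not call met-2, the mutated gene itself. At the same threshold DESeq2's Wald test called 1 member, met-2, and 0.239% of all tested genes, so the calls depended on the tool.

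The study compared 2 genotypes with 2 mRNA-seq libraries each. One carries met-2(n4256) and him-8(tm611), and is called met-2;him-8. The other carries him-8(tm611) only, and is called him-8. The him-8 mutation is thus shared by all 4 libraries. It disrupts a zinc finger protein that pairs the X chromosomes in meiosis, so that the X chromosomes of both genotypes mostly fail to pair and synapse, and no group with an intact him-8 gene was analysed here. The met-2 allele is treated as a null in the study's notation, and its carriers were recently derived from a balanced strain and still fertile, so the comparison covers the short-term loss of met-2. Both genotypes were adult, and each preparation used 400 gonad arms, cut at the spermatheca, and 1.2 micrograms of total RNA. The arms are mostly germ line with some somatic sheath and spermathecal cells. In such bulk tissue fewer cells of a type and less RNA per cell cannot be told apart. Replicates came from gonads dissected and extracted separately, per the study's methods.

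Methylation of H3K9 marks silent chromatin and repeats. MET-2, the worm SETDB1 ortholog, adds the first methyl groups (H3K9me1 and H3K9me2), and in the germ line it deposits the H3K9me2 that gathers on chromosomes that fail to synapse. SET-25 adds the trimethyl mark, and SET-32 is a related SET domain protein that acts in small RNA-guided nuclear silencing. LIN-65 binds MET-2 and is needed for its accumulation in the nucleus. The marks are bound by readers. HPL-1 and HPL-2 are the worm HP1 proteins and carry a chromodomain, LIN-61 binds methylated H3K9 through MBT repeats, and LIN-13 is a zinc finger protein that recruits HPL-2. Several of these genes were first found as synMuv genes, which restrain vulval cell fates.

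The libraries held 17474062 and 36853036 reads on genes in met-2;him-8 replicates 1 and 2, and 49848077 and 14255714 in him-8 replicates 1 and 2. Levels are given as CPM, reads scaled to a common library total, with TMM, a method that evens out composition between libraries. Taken as the smallest detectable count, 3 reads corresponded to between 0.0602 and 0.210 CPM of the plain library total, and each member had at least 31 reads in every library. Germ line and oocyte markers were abundant. The summed level of 7 germ line markers (glh-1, pgl-1, gld-1 and others) was 5815 and 7147 CPM in met-2;him-8 and 5990 and 6556 CPM in him-8, and none of the 7 was at 0 in any library. One by one, 3 of the 7 were higher and 3 lower in both met-2;him-8 libraries. Markers of tissue outside the gonad were also present. The 5 intestinal markers summed to 1690 and 967 CPM in met-2;him-8 and 648 and 401 CPM in him-8. The 4 muscle markers summed to 86.9 and 200.1 CPM in met-2;him-8 and 72.9 and 55.4 CPM in him-8. Both of these sums were higher in both met-2;him-8 libraries, and of each list 3 genes were higher one by one. Over all tested genes, 16.9% were higher and 19.8% lower in both met-2;him-8 libraries. The 5 markers of the gonadal sheath summed to 161 and 140 CPM in met-2;him-8 and 212 and 227 CPM in him-8, with 2 of the 5 lower and 1 higher one by one. The sums of the oocyte, sperm, spermatheca, hypodermis, neuron and pharynx markers overlapped between the genotypes. Some of them differed widely between replicates. The 8 oocyte markers summed to 11677 and 19712 CPM in met-2;him-8 and 11432 and 11889 CPM in him-8, with 3 higher and 0 lower one by one. The 4 spermatheca markers summed to 351 and 1504 CPM in met-2;him-8 and 527 and 762 CPM in him-8. The part of these differences in the members' values was not tested.

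As a check of the labels, the mutated gene comes before the others. The gene met-2 (R05D3.11, on chromosome III from position 8375228 to 8380560, plus strand, in the coordinates of the authors' table, whose build is not named) had 498 and 1759 reads in met-2;him-8 and 6607 and 2901 reads in him-8. These counts correspond to 25.8 and 52.8 CPM in met-2;him-8 and 127 and 212 CPM in him-8. Each met-2;him-8 library was under each him-8 library, and the genotypes did not overlap. Reads on the gene were thus still counted in the mutant. The counts give 1 value for the whole gene, and which exons the allele removes is not given in the sources used here. Mean levels were 39.3 ± 19.1 CPM in met-2;him-8 and 169.7 ± 59.9 CPM in him-8 (SD, n = 2 each). The log2 fold change, met-2;him-8 over him-8, was -2.11 with a standard error of 0.46 and a 95% interval of -3.29 to -0.92. Without met-2;him-8 replicate 2 it was -2.73, and without met-2;him-8 replicate 1 it was -1.68. In edgeR's quasi-likelihood test, adjusted by the Benjamini-Hochberg method over 10875 tested genes, the adjusted p was 0.886. With DESeq2's Wald test on the same genes the log2 fold change was -2.09 and the adjusted p was 0.0269. DESeq2 gave some of these genes no adjusted p, so its adjustment covered fewer genes. The call for met-2 thus depended on the tool and its adjustment. It was also the 1 member called with no filter on low counts, where 0.659% of genes were called, and in 3 fits described in the closing section, where 1.32%, 2.57% and 0.818% were called.

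The position of met-2 among all tested genes puts these values in context. In edgeR's test 0 genes, or 0%, passed an adjusted p of 0.05, whereas 526 genes, or 4.84%, had an unadjusted p below 0.05, and DESeq2 called 26 genes, or 0.239%. By size of log2 fold change met-2 ranked 373 of 10875, so that 3.42% of tested genes had a larger difference in either direction. The share of tested genes that, like met-2, were lower in both met-2;him-8 libraries was 19.8%, and 36.8% did not overlap in 1 direction or the other. At an unadjusted p below 0.05, 3.01% were lower and 1.83% higher in met-2;him-8. Of the 8 members met-2 and set-32 were lower in this way, and met-2 was the 1 member with such a p. The nearest genes on either side of met-2 did not show its difference. R05D3.2, which ends 524 bp upstream, was at 177 and 143 CPM in met-2;him-8 and 171 and 165 CPM in him-8. R05D3.12, which starts 324 bp downstream, was at 6.32 and 7.83 CPM in met-2;him-8 and 7.91 and 6.58 CPM in him-8. The libraries of the genotypes overlapped for both neighbours, with 95% intervals of the log2 fold change of -0.62 to 0.48 for R05D3.2 and -1.06 to 0.99 for R05D3.12. The gene him-8 itself (T07G12.12, chromosome IV), mutated in every library, was at 68.1 and 42.5 CPM in met-2;him-8 and 67.2 and 74.1 CPM in him-8, and overlapped as well.

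Next, the other methyltransferases were compared. Transcripts of set-25 (Y43F4B.3, chromosome III, 13284365 to 13292976, minus strand), which encodes the enzyme that adds the trimethyl mark, were at 24.1 and 21.7 CPM in met-2;him-8 and 20.5 and 25.4 CPM in him-8. The him-8 libraries lay on either side of both met-2;him-8 libraries. Mean levels were 22.9 ± 1.68 CPM in met-2;him-8 and 22.9 ± 3.43 CPM in him-8 (SD, n = 2 each). This gave a log2 fold change of -0.0011 with a standard error of 0.30. Its 95% interval, expressed as a ratio of met-2;him-8 to him-8, ran from 0.590-fold to 1.69-fold, so a difference within those bounds was not excluded. The bounds are not a limit of detection, since met-2, with a 4.32-fold difference, was not called in the same fit. The authors' table gives set-25 the same interval as F56A8.8, a gene on the other strand, and in the WBcel235 annotation exons of set-25 overlap those of unc-64. Both of these genes had few reads, with at most 32 for F56A8.8 and 116 for unc-64 in a library, against at least 347 for set-25. The library kit is not described as strand-specific, so reads in shared sequence could not be assigned by strand.

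Transcripts of set-32 (C41G7.4, chromosome I, 9519250 to 9521182, plus strand), which acts in nuclear RNA silencing, were at 19.2 and 22.4 CPM in met-2;him-8 and 27.4 and 30.04 CPM in him-8. Each met-2;him-8 library was under each him-8 library, as for met-2 but over a far smaller range. This order was shared by 19.8% of tested genes, as given above, and is a frequent one. Its log2 fold change was -0.46 with a standard error of 0.28 (95% interval -1.19 to 0.27), and the adjusted p was 0.891 in edgeR's quasi-likelihood test. Between libraries of the same replicate number the log2 difference was -0.51 for replicate 1 and -0.42 for replicate 2.

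Transcripts of lin-65 (Y71G12B.9, chromosome I, 1755332 to 1766031, plus strand), which encodes the partner of MET-2, were at 81.9 and 83.2 CPM in met-2;him-8 and 91.4 and 71.0 CPM in him-8. The met-2;him-8 values sat between those of him-8. In edgeR's fit lin-65 had a log2 fold change of 0.023, a standard error of 0.24 and a 95% interval of -0.60 to 0.65. The transcript of the partner was thus at a mean of 82.6 ± 0.904 CPM in met-2;him-8 and 81.2 ± 14.5 CPM in him-8 (SD, n = 2 each).

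**Figure D1:**
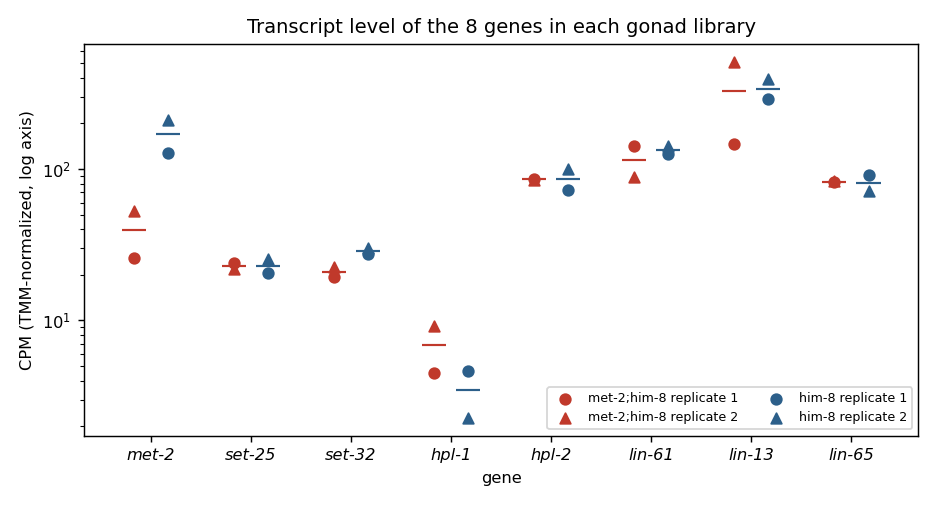
Transcript level of each of the 8 genes in CPM on a log axis, with 1 point per library (circles, replicate 1; triangles, replicate 2) and a bar at the mean of each genotype, met-2;him-8 in red and him-8 in blue. The met-2 points are at 25.8 and 52.8 CPM in met-2;him-8 and 127 and 212 CPM in him-8, the lin-13 points of met-2;him-8 lie far apart, and only met-2 and set-32 have genotypes that do not overlap.

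The readers and LIN-13, the partner of HPL-2, were then examined. HPL-2 is the HP1 protein with the broader role in germ line development. Transcripts of hpl-2 (K01G5.2, chromosome III, 10752225 to 10755411, minus strand) were at 85.9 and 85.1 CPM in met-2;him-8 and 72.7 and 100.2 CPM in him-8. The 2 met-2;him-8 libraries were almost equal and within the him-8 range. Its log2 fold change was -0.015 with a standard error of 0.26 and a 95% interval of -0.68 to 0.65.

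HPL-1 is the second HP1 protein, and its gene is the only X-linked member. Transcripts of hpl-1 (K08H2.6, chromosome X, 13245359 to 13246766, plus strand) were counted 87 and 306 times in met-2;him-8 and 241 and 31 times in him-8, the fewest reads of the 8 genes in every library. The levels were 4.51 and 9.18 CPM in met-2;him-8 and 4.65 and 2.27 CPM in him-8. The genotypes overlapped, since replicate 1 had nearly the same level in both, and the higher mean in met-2;him-8 came from replicate 2. For hpl-1 the log2 fold change was 0.97 with a standard error of 0.61 (95% interval -0.60 to 2.55), and the adjusted p was 0.891 in edgeR's quasi-likelihood test. Between libraries of the same number the log2 difference was -0.043 for replicate 1 and 1.99 for replicate 2. Without met-2;him-8 replicate 2 the log2 fold change was 0.35, and without him-8 replicate 2, the shallowest library, it was 0.57. Without met-2;him-8 replicate 1 it was 1.40, and without him-8 replicate 1 it was 1.58. The median log2 fold change of the 1295 tested X-linked genes was 0.21, while that of the chromosomes of the other members was -0.012 for chromosome I and -0.019 for chromosome III.

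Transcripts of lin-61 (R06C7.7, chromosome I, 7248974 to 7251280, minus strand), the MBT repeat reader, were at 142 and 88.4 CPM in met-2;him-8 and 126 and 142 CPM in him-8. The genotypes overlapped, and met-2;him-8 replicate 2 was the lowest library. The log2 fold change was -0.22 with a standard error of 0.30 and a 95% interval of -0.98 to 0.54. Without met-2;him-8 replicate 2 it was 0.072, so that its sign rested on that library.

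Transcripts of lin-13 (C03B8.4, chromosome III, 7700560 to 7709407, minus strand), which encodes the zinc finger partner of HPL-2, were counted 2824 and 17001 times in met-2;him-8 and 14919 and 5338 times in him-8. The levels were 146 and 510 CPM in met-2;him-8 and 288 and 390 CPM in him-8. The met-2;him-8 libraries were the lowest and the highest of the 4, and enclosed both him-8 libraries. Replicate 2 was 3.49-fold above replicate 1 in met-2;him-8 and 1.36-fold above it in him-8. For lin-13 the log2 fold change was -0.046 with a standard error of 0.59, and the 95% interval, -1.56 to 1.47, was the widest but for that of hpl-1. Without met-2;him-8 replicate 1 the log2 fold change was 0.60, and without met-2;him-8 replicate 2 it was -1.22. It was 0.20 without him-8 replicate 2 and -0.26 without him-8 replicate 1. In the WBcel235 annotation exons of C18H2.4 overlap those of lin-13, and C18H2.4 had at most 22 reads in a library.

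The gene lin-13 has the longest transcript of the members, with 7.05 kb of exon, followed by met-2 with 4.13 kb, and the 2 replicates of met-2;him-8 differed with transcript length over all tested genes. The median log2 ratio of replicate 2 to replicate 1 in met-2;him-8 was -0.057 for 2865 genes with under 1 kb of exon, -0.16 for 4684 genes of 1 to 2 kb, 0.16 for 2517 genes of 2 to 4 kb, 0.77 for 468 genes of 4 to 6 kb and 1.51 for 209 genes over 6 kb. The same medians in him-8 ran from -0.069 to 0.18. The difference of lin-13 between the met-2;him-8 replicates, 1.80 on the log2 scale, was thus near the median of its length class. That of met-2 was 1.03 in met-2;him-8 and 0.73 in him-8, against class medians of 0.77 in met-2;him-8 and 0.13 in him-8. For hpl-1, which has 0.802 kb of exon, the difference was 1.02 in met-2;him-8 and -1.01 in him-8, where the class medians were close to 0.

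A fit with an offset for transcript length in each library, chosen after this trend was seen, was therefore added. In that fit the log2 fold change of lin-13 was -0.44 with an adjusted p of 0.878 in edgeR's quasi-likelihood test, and that of met-2 was -2.27 with an adjusted p of 0.878. Those of hpl-1 and set-32 were 1.06 and -0.41, and those of the 4 other members lay between -0.20 and 0.041. The offset thus moved the estimate for lin-13 by more than that of any other member, and left none of the 8 below an adjusted p of 0.05.

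**Figure D2:**
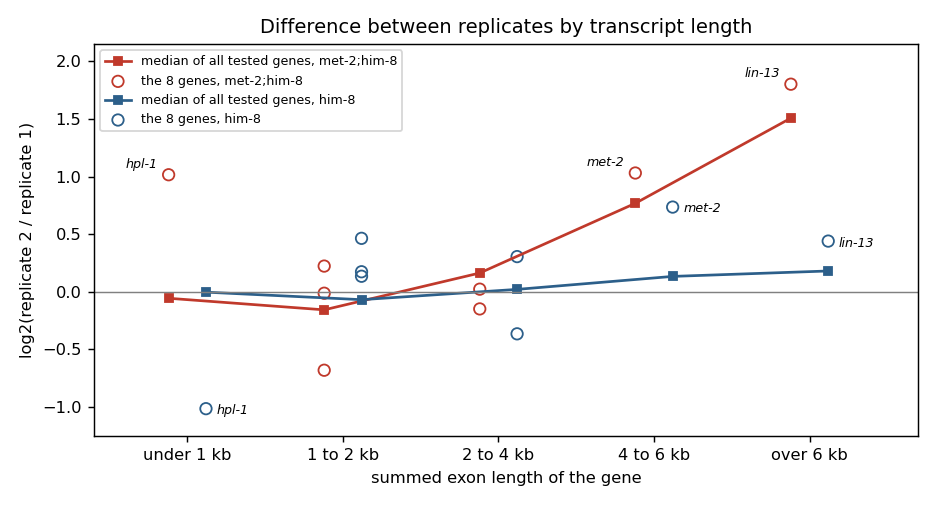
Log2 ratio of replicate 2 to replicate 1 within each genotype by summed exon length, with lines joining the medians of all tested genes per length class and open circles for the 8 genes (met-2;him-8 in red, him-8 in blue). The met-2;him-8 medians reach 1.51 for transcripts over 6 kb and the him-8 medians reach 0.18, and the met-2;him-8 circle of lin-13 lies at 1.80.

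**Figure D3:**
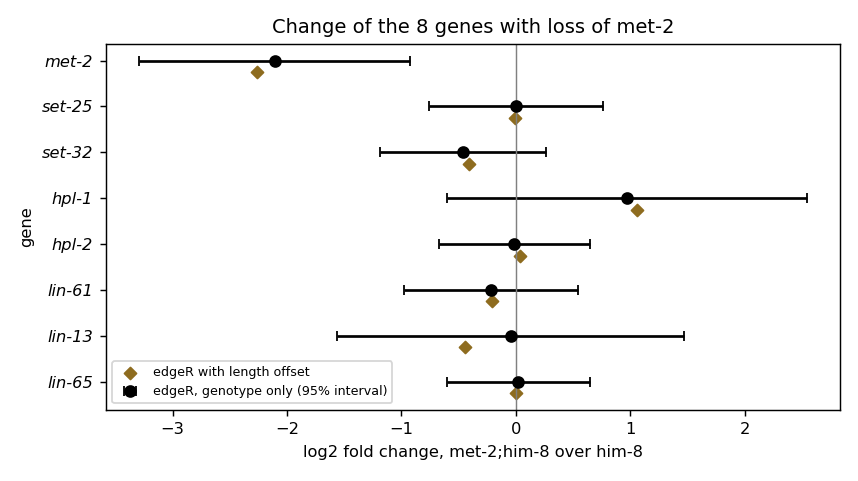
Log2 fold change of each gene, met-2;him-8 over him-8, from edgeR with genotype alone (black points, bars are 95% intervals) and with the length offset (brown diamonds). The interval of met-2, -3.29 to -0.92, leaves out 0 before adjustment over all genes, and those of the 7 other genes include it.

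To rank the genes by level, CPM was divided by length, giving CPM per kb of exon (RPKM, with exon lengths from the WBcel235 annotation). In him-8 the order by mean was lin-61, hpl-2, lin-13, met-2, lin-65, set-32, set-25 and hpl-1. The level was 67.3 ± 5.72 RPKM for lin-61, 67.2 ± 15.1 for hpl-2, 48.1 ± 10.3 for lin-13 and 41.1 ± 14.5 for met-2 (SD, n = 2 each). It was 31.1 ± 5.53 RPKM for lin-65, 17.4 ± 1.15 for set-32, 8.19 ± 1.22 for set-25 and 4.31 ± 2.10 for hpl-1. The him-8 libraries of neighbours in this order overlapped for lin-61 and hpl-2, for lin-13 and met-2, and for met-2 and lin-65. They did not overlap at the other 4 steps. For comparison, the median of 10743 tested genes was 10.3 and 9.76 RPKM in the him-8 libraries, so that set-25 and hpl-1 lay below the median gene and the 6 others above it.

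In met-2;him-8 the order was hpl-2, lin-61, lin-13, lin-65, set-32, met-2, hpl-1 and set-25. The level of met-2 was 9.51 ± 4.62 RPKM, beside 12.6 ± 1.38 for set-32, 8.53 ± 4.12 for hpl-1 and 8.18 ± 0.599 for set-25 (SD, n = 2 each). Among these 4 genes the libraries of neighbours overlapped, although within each library set-32 was above met-2 and met-2 above hpl-1. The first 4 of the order overlapped from each gene to the next as well, at 66.5 ± 0.418 RPKM for hpl-2, 57.9 ± 18.98 for lin-61, 46.5 ± 36.5 for lin-13 and 31.6 ± 0.346 for lin-65. The step from lin-65 to set-32 did not overlap.

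The balance among the 3 methyltransferases was described as the share of each in their summed RPKM. The share of met-2 was 23.6% and 37.5% in met-2;him-8 and 56.4% and 65.3% in him-8. The share of set-32 was 43.9% and 39.8% in met-2;him-8 and 30.3% and 23.1% in him-8, and that of set-25 was 32.5% and 22.7% in met-2;him-8 and 13.4% and 11.5% in him-8. The genotypes did not overlap for any of the 3, and the levels of 36.8% of all tested genes did not overlap either. All 3 shares contain the level of met-2, so they are not separate from its difference. The trend with transcript length described above can also enter the shares, and its part in them was not tested. Since shares sum to the whole, those of set-25 and set-32 were higher in met-2;him-8 although the level of set-25 itself was nearly equal and that of set-32 lower there.

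**Figure D4:**
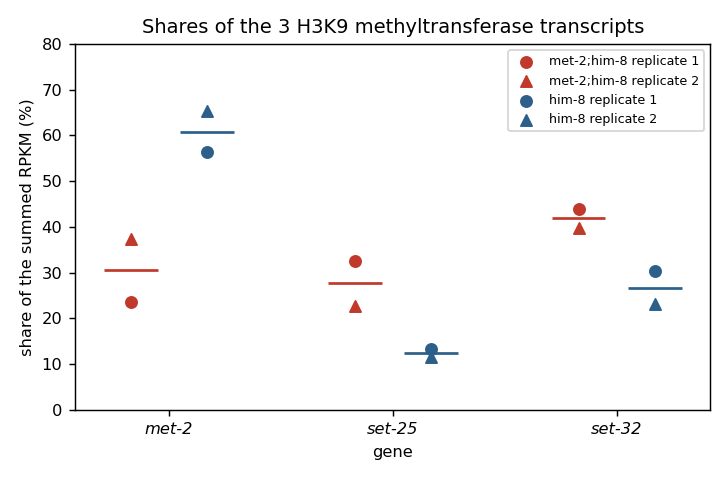
Share of met-2, set-25 and set-32 in the summed RPKM of the 3 genes, in percent, with 1 point per library and a bar at the mean of each genotype (met-2;him-8 in red, him-8 in blue). The met-2 share averages 30.5% in met-2;him-8 and 60.8% in him-8, and the other shares are higher in met-2;him-8.

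The genotypes were also compared by 5 ratios of 2 members within a library, each taken after 0.5 CPM was added to both levels. The addition lowers ratios that involve a scarce transcript such as hpl-1. Dividing by transcript length would scale a ratio alike in every library, and without it the ratios are not relative levels of the 2 genes. The trend with transcript length described above can still enter them, since met-2 is longer than set-25, set-32 and lin-65. Over all tested genes the median log2 fold change was -0.016 for 1 to 2 kb, 0.052 for 2 to 4 kb and 0.23 for 4 to 6 kb. Its part in the ratios was not tested. The ratio of met-2 to set-25 was 1.07 and 2.397 in met-2;him-8 and 6.09 and 8.22 in him-8. The ratio of met-2 to set-32 was 1.33 and 2.32 in met-2;him-8 and 4.59 and 6.96 in him-8. For met-2 and its partner lin-65 the ratio was 0.319 and 0.637 in met-2;him-8 and 1.39 and 2.97 in him-8. All 3 ratios were lower in both met-2;him-8 libraries, with log2 differences of -2.14 over set-25, -1.68 over set-32 and -2.17 over lin-65. They share met-2 as numerator, so they are not separate from its lower level given above. The ratio of set-25 to set-32 was 1.25 and 0.969 in met-2;him-8 and 0.754 and 0.847 in him-8, higher by 0.46 on the log2 scale. The ratio of hpl-2 to hpl-1 was 17.3 and 8.85 in met-2;him-8 and 14.2 and 36.4 in him-8, and overlapped. With 2 libraries in each genotype the smallest p of an exact permutation test, two-sided, is 0.333. The test gave 0.333 for the first 3 ratios and for set-25 over set-32, and 0.667 for hpl-2 over hpl-1. Adjusted over the 5 ratios these values were 0.417 and 0.667.

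Other genes of the pathway were taken from 4 lists by known function, 39 genes in all, of which 35 were tested. In edgeR's test none of the 35 passed an adjusted p of 0.05 (0 genes), and 1 had an unadjusted p below 0.05. Over all tested genes 0% passed the adjusted threshold and 4.84% had an unadjusted p below 0.05. Their median log2 fold change was 0.032, beside 0.021 over all tested genes. For 7 genes each met-2;him-8 library was above each him-8 library, and for 4 the reverse held. The corresponding shares over all tested genes were 16.9% and 19.8%.

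The first list held a further MET-2 partner and a meiotic regulator of H3K9me2. Transcripts of arle-14 (B0336.5), which encodes a protein found with MET-2 and LIN-65, were at 99.0 and 116.8 CPM in met-2;him-8 and 96.5 and 114.6 CPM in him-8. Those of him-17, needed for normal H3K9 methylation in meiotic prophase, were at 192 and 249 CPM in met-2;him-8 and 215 and 245 CPM in him-8. Both genes overlapped, with log2 fold changes of 0.032 for arle-14 and -0.061 for him-17.

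The second list held 9 other chromodomain and MBT repeat genes, all tested. Their median log2 fold change was 0.22, and 2 genes were higher in both met-2;him-8 libraries, none lower. The sign of this median rested on single libraries, since it was -0.022 without met-2;him-8 replicate 2 and -0.067 without him-8 replicate 1. The lowest log2 fold change was that of cec-4 (F32E10.2), whose product anchors H3K9-methylated chromatin at the nuclear periphery of embryos. It was at 18.03 and 18.7 CPM in met-2;him-8 and 16.0 and 47.5 CPM in him-8. Its log2 fold change was -0.79 with a standard error of 0.56, and only him-8 replicate 2 stood apart. The next lowest was cec-6 (T12E12.2), at -0.098 with a standard error of 0.46. The highest were cec-8 (Y55B1BR.3), at 0.54 with a standard error of 0.93, and cec-7 (Y37D8A.11), at 0.41 with a standard error of 0.34. Both overlapped between the genotypes. The 2 genes that did not overlap were cec-1 and mbtr-1, chosen here after their values were seen. Transcripts of mbtr-1, an MBT repeat gene related to lin-61, were at 93.9 and 101.5 CPM in met-2;him-8 and 86.2 and 61.9 CPM in him-8.

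The third list held 25 other SET domain genes, of which 22 were tested. Their median log2 fold change was -0.011, with 5 genes higher and 4 lower in both met-2;him-8 libraries. The highest log2 fold change was that of set-20, at 2.59 and 2.13 CPM in met-2;him-8 and 0.366 and 0.585 CPM in him-8. It was 2.34 with a standard error of 0.71, and was the difference with an unadjusted p below 0.05 (adjusted p = 0.886 in edgeR's quasi-likelihood test). The next was set-19, at 1.40 and 6.63 CPM in met-2;him-8 and 1.33 and 1.32 CPM in him-8. Its log2 fold change was 1.61 with a standard error of 0.86. Both genes lie close together on the minus strand of chromosome X, where set-19 ends at position 5680163 and set-20 starts at 5680526. The median log2 fold change of tested X-linked genes was 0.21. The lowest were set-18, at 0.725 and 0.450 CPM in met-2;him-8 and 1.25 and 2.27 CPM in him-8, and set-10, at 2.54 and 5.52 CPM in met-2;him-8 and 8.35 and 9.28 CPM in him-8. Estimates were a log2 fold change of -1.57 with a standard error of 0.79 for set-18 and -1.12 with a standard error of 0.53 for set-10. The genes at both ends of this list were thus scarce, at under 10 CPM in every library. Among the 3 genes that were not tested, set-11 was listed at 0 in every library, and set-8 and set-33 had at most 18 reads in a library.

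The fourth list held 3 JmjC demethylase genes of H3K9, of which 2 were tested. Transcripts of jmjd-2 were at 66.7 and 77.0 CPM in met-2;him-8 and 74.3 and 53.4 CPM in him-8. Those of jmjd-1.2 (F29B9.2) were at 41.8 and 201.4 CPM in met-2;him-8 and 54.1 and 156.2 CPM in him-8, with replicate 2 above replicate 1 in both genotypes. Both genes overlapped between the genotypes, with log2 fold changes of 0.17 for jmjd-2 and 0.21 for jmjd-1.2. Transcripts of jmjd-1.1 (F43G6.6) were at 0.48 CPM or less in every library.

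The genes whose pattern was most like that of met-2 were found from the centred log2 CPM over the 4 libraries, among 8498 other genes with at least 10 reads in each, by the root-mean-square difference. The nearest was F55A3.7 (chromosome I), with a difference of 0.063 on the log2 scale. F55A3.7 was at 2.02 and 4.05 CPM in met-2;him-8 and 11.1 and 16.9 CPM in him-8. It was followed by H14A12.5 at 0.21, C04G6.6 at 0.23, C16C8.20 at 0.25 and math-44 at 0.29. The last of these belongs to a multigene family, and how reads were shared within it was not measured here. All 5 were scarce transcripts, at under 17 CPM in every library, and lower in both met-2;him-8 libraries, which the measure of likeness itself required. Of the other members, set-32 was nearest to met-2, in place 726 of 8498 with a difference of 0.92, and hpl-1 was farthest, in place 7931 with a difference of 1.68.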

How the data were processed

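The data are 4 mRNA-seq libraries, 2 per genotype. STAR was the authors' aligner, and Cuffdiff 2.2.1 their test. The authors deposited estimated counts per gene and library, not scaled to depth, of which 53 to 66 per library are not whole. The tool behind them is not given in the sources used here. A second deposited table gives pooled RPKM per genotype, gene names and positions, and the authors' own log2 fold changes, p-values and test score, which were not used. Its 3244 genes with status NOTEST or HIDATA had 0 reads throughout and are only listed at 0. All 8 members had status OK. The limit of 3 reads covers counting error only.

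Counts were rounded and the whole table was fitted with edgeR 4.0.16 in R 4.3.3 (quasi-likelihood, TMM, filterByExpr, genotype only), although the design had assumed whole counts, and p-values were adjusted by Benjamini-Hochberg over the 10875 genes that passed the filter, as did all 8 members. Intervals are 95% of that fit, whose prior degrees of freedom were 3.07. Exact permutation tests used scipy 1.17.1, with a pseudocount of 0.5 CPM in ratios. The tests were checked on simulated data. Exon lengths came from WBcel235 and 19901 of 20389 genes had one. Positions are those of the authors' table, counted from 1. Older gene names were matched through RefSeq's WBcel235 names. DESeq2 1.42.0, other scalings and filters, a replicate block and leaving out each library were alternatives.

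Named genes are the 8 members, him-8, the neighbours and overlaps, every tested gene of a list with up to 4 tested genes and the 2 highest and 2 lowest of a longer list, and the 5 most like met-2, unless the text says otherwise. The members and lists were chosen with earlier results of these data known. With 2 libraries per genotype, p-values reflect only variation between these libraries. Those of edgeR and DESeq2 also draw on the spread of other genes.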

Additional observations from a re-analysis of the deposited data

How the results depend on the processing

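The log2 fold change of met-2 kept its direction in all 14 alternatives. It passed the threshold with no expression filter (-2.10, adjusted p = 5.16e-07 in edgeR's test), with DESeq2 (-2.09), with DESeq2 and the replicate block (-2.14) and with the length offset and replicate block together (-2.25). With the replicate block alone it was -2.15 (adjusted p = 5.39e-07 in edgeR's test). The prior degrees of freedom, the weight given to the spread shared by all genes, were 3.07 with genotype only and 74.9 with the block. They were infinite with no filter and with the length offset and block. In these 3 fits the spread of a gene's own libraries thus had little weight, and small p-values rest on the shared spread. Deviations of libraries with the same number had a correlation of 0.358 across genes, and those of different number -0.358. With 2 libraries per genotype these values are equal and opposite by construction, so their signs alone cannot show a pairing. Nothing in the labels or methods pairs the libraries. The block left met-2 as the only member called (1 gene), as did no filter, DESeq2 and both added fits with a block. Over all tested genes the calls numbered 113 with no filter, 26 with DESeq2, 144 with the block, 89 with DESeq2 and the block and 279 with the length offset and block, which was chosen after seeing the data, and 0 otherwise. Of the pathway lists 1 gene, set-26, was called with no filter and with the length offset and block. It is a close paralog of set-9, and how reads were split between them is uncertain. Between libraries of the same number the log2 difference of set-26 was 0.022 for replicate 1 and 2.33 for replicate 2. The gene has 5.32 kb of exon, and the part of the length trend in its difference was not tested. The sign of near-zero values turned. For set-25 it was positive with RLE (0.016), upper quartile (0.0050), no filter (0.0039), at least 10 reads (0.0081), DESeq2 (0.017), the block (0.0050) and DESeq2 with the block (0.022). For hpl-2 it was positive with RLE (0.0027), DESeq2 (0.0032), the block (0.0036), the length offset (0.041), that offset with the block (0.061) and DESeq2 with the block (0.020). The cause was not tested. With each library left out, the log2 fold change ranged from -2.73 to -1.68 for met-2, -0.16 to 0.16 for set-25, -0.59 to -0.34 for set-32, 0.35 to 1.58 for hpl-1, -0.24 to 0.24 for hpl-2, -0.59 to 0.072 for lin-61, -1.22 to 0.60 for lin-13 and -0.15 to 0.20 for lin-65. These fits leave 1 genotype with a single library, assumed to vary like the other, and none called a gene (0 genes). The list medians all turned sign in some of these fits, ranging from -0.19 to 0.14 for the MET-2 partner list, -0.067 to 0.35 for chromodomain and MBT repeat genes, -0.026 to 0.046 for other SET domain genes and -0.64 to 0.76 for JmjC genes. With the longest transcript as length, hpl-2 was at 81.1 RPKM in met-2;him-8 and 81.9 RPKM in him-8. For lin-65 these levels were 32.3 and 31.7 RPKM. In him-8 hpl-2 was then above lin-61, which was at 72.7 RPKM, so the order of these genes depended on the length used. The direction of all 5 ratios held without each library and at other pseudocounts. Depth limits hpl-1 most, with 31 reads in him-8 replicate 2.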
